A study of Mus musculus with 27 samples.

Results

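Expression of 10 genes of the integrated stress response was followed in macrophages: Atf4, Ddit3 and Atf3, which encode transcription factors, Trib3, Chac1 and Sesn2, which encode feedback and stress proteins, Asns, Psat1 and Mthfd2, which encode enzymes of amino acid and one-carbon metabolism, and Gdf15, which encodes a secreted cytokine. They were chosen by name, as the ATF4-CHOP branch with its serine and one-carbon enzymes, with earlier results of these data known. The counts of called genes below are therefore not those of a blind choice. These were 10 of the 50559 genes in the count table. All 10 passed the filter on low counts that left 13614 genes for testing.

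The integrated stress response is the pathway by which a cell that lacks amino acids, misfolds protein in the endoplasmic reticulum, senses damaged mitochondria or meets double-stranded RNA slows its protein synthesis, through phosphorylation of the translation factor eIF2. While most translation falls, the mRNA of ATF4 is translated better, and ATF4 then activates genes for amino acid synthesis and uptake, for the loading of tRNA with amino acids, and for CHOP (the product of Ddit3), which at high stress favours cell death. GDF15 is released by stressed cells, acts on appetite through the receptor GFRAL in the brainstem, and is known both as a target of ATF4 and CHOP and as a product of macrophages.

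Bone marrow of C57BL/6 mice of 3 to 4 months, given as female and either wild type (WT) or deficient in TRAP1 (TRAP1 KO), a mitochondrial chaperone of the HSP90 family, was differentiated with medium from L929 fibroblasts as the source of M-CSF, so that every group grew in that factor. The cells were left unpolarized (Mφ, M0 in the labels) or polarized to M2 by 24 h of IL-4, given at 10 ng/ml. All were then kept for 48 h either in DMEM, the control medium, or in MPNST-CM, a medium conditioned by malignant peripheral nerve sheath tumor cells and renewed after 24 h. The gene is missing in the whole animal, so the marrow, its donor and the macrophages differ together, and MPNST-CM and DMEM differ in whatever the tumor cells released or used up. This gave 8 groups of 3 libraries in batch 1, and 3 further libraries in batch 2, each labelled replicate 4: 1 of WT Mφ and 1 of TRAP1 KO M2 cells that saw DMEM alone, and 1 of TRAP1 KO M2 cells that saw MPNST-CM. Whether the replicates of a group came from separate mice is not given, so the p-values measure only the spread between these libraries, which may be technical. Results below are from the 24 libraries of batch 1, and levels are CPM, counts scaled to library size, after TMM scaling. The batch 1 libraries were scaled together, and CPM of the batch 2 libraries come from a scaling of all 27 libraries.

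The libraries of batch 1 held 7037684 to 9089792 counts on genes and those of batch 2 9997776 to 11152362. The 12 WT libraries of batch 1 had Trap1 at 10.4 to 18.8 CPM, and the 12 TRAP1 KO libraries had no count of it. Xist, transcribed from the inactive X chromosome of female cells, was at 254 CPM or more in those WT libraries and at 1.14 CPM or less in those TRAP1 KO libraries, so in batch 1 the genotype and the status of Xist cannot be told apart, and the part of the latter in any genotype difference was not tested. Low Xist goes against the stated sex of those TRAP1 KO libraries, while 4 genes of the Y chromosome summed to at most 2 counts in each of the 27 libraries. None of the 10 genes lies on the X chromosome. Both TRAP1 KO libraries of batch 2 had Xist, at 308 and 404 CPM, and both stood apart from the libraries that share their labels. The library labelled TRAP1 KO M2 control replicate 4 had Asns at 129.7 CPM, where the 3 libraries of batch 1 had 5.38 to 6.83, and the library labelled TRAP1 KO M2 MPNST-CM replicate 4 had it at 7.58 CPM, where those of batch 1 had 113 to 122. For Asns each of these libraries thus lay nearer to the batch 1 range of the other medium, and the reason was not tested. Every count of called genes among the 10 is therefore also given from all 27 libraries. The share of all genes called in that fit is given only for the genotype in MPNST-CM, where it was also lower than in batch 1. A smaller count from all 27 libraries is thus not by itself a result about the 10 genes. A further fit, chosen after the data were seen, left out only the 2 TRAP1 KO libraries of batch 2 and kept the WT library of batch 2. Each of the 16 counts given below changed by at most 1 in it. Since it drops the 2 libraries that stood apart, it cannot show whether the counts hold with them. Macrophage markers (8 genes) summed to 8379 to 12859 CPM in the libraries of batch 1, whereas 6 neutrophil and progenitor markers summed to at most 19.98 CPM, 5 fibroblast markers to at most 4.65, 4 Schwann lineage markers to at most 8.26 and 4 lymphocyte markers to at most 0.268, with Cd79a at 0 in every library. The part of these other cells in the results was not tested.

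The promoters of 4 of the 10 genes held the letters TGATGNAA, and these 4 are shown. The letters are the core of the C/EBP-ATF response element, which ATF4 is known to bind together with a C/EBP partner. No match lay in the promoters of Gdf15, Atf4, Ddit3, Psat1, Mthfd2 and Sesn2. Of these, Atf4, Ddit3 and Mthfd2 were higher in TRAP1 KO than in WT in MPNST-CM, as told below. Atf3, which has a match, was lower there. The windows are from RefSeq on GRCm38.p6, 250 bases before to 50 bases after each annotated start, and were read 5′ to 3′ on the strand of the gene. All 10 genes matched, with 12 windows. Capitals mark the match, which reads TTGCATCA or TTACATCA where the element lies on the opposite strand. The windows are Asns at chr6:7693160-7693459 on the minus strand, Trib3 at chr2:152344011-152344310 on the minus strand, Chac1 at chr2:119350992-119351291 on the plus strand and Atf3 at chr1:191183284-191183583 on the minus strand.
Asns: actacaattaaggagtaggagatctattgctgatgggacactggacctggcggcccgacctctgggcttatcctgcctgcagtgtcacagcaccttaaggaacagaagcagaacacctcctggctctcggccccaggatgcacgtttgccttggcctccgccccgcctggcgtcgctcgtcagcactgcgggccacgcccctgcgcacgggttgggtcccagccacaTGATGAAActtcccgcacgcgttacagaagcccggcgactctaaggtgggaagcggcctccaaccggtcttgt
Trib3: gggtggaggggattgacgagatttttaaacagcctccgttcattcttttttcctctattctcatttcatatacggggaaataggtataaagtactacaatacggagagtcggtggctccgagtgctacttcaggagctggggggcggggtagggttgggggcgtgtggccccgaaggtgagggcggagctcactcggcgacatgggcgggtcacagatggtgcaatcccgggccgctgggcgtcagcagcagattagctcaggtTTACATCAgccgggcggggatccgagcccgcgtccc
Chac1: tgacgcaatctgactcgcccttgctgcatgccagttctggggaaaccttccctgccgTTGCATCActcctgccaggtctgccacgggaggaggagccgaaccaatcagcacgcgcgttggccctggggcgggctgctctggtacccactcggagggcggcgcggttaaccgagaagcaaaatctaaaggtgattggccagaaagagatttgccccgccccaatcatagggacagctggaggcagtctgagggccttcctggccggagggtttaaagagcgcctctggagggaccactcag
Atf3: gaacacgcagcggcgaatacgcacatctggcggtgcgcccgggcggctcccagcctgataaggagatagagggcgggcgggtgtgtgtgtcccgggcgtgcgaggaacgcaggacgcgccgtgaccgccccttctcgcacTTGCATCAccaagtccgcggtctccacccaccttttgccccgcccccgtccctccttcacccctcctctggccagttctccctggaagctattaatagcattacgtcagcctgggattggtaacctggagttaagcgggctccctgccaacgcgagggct
Counted from the start site as base 1, the first base of the match is at -23 in Asns, 15 in Trib3, -193 in Chac1 and -110 in Atf3. Over all genes, 3.97% of 32851 windows held TGATGNAA on either strand, beside 4 of the 12 windows of these genes. The cyclic AMP response element TGACGTCA was in 1.79% of all windows and in none of the 12, its part TGACGT was in 7.51% and in that of Atf3, and CCACG, the end of the endoplasmic reticulum stress element, was in 32.8% and in windows of 6 of the 10 genes. A match is a string of letters only, and no binding was measured.

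**Figure D1:**
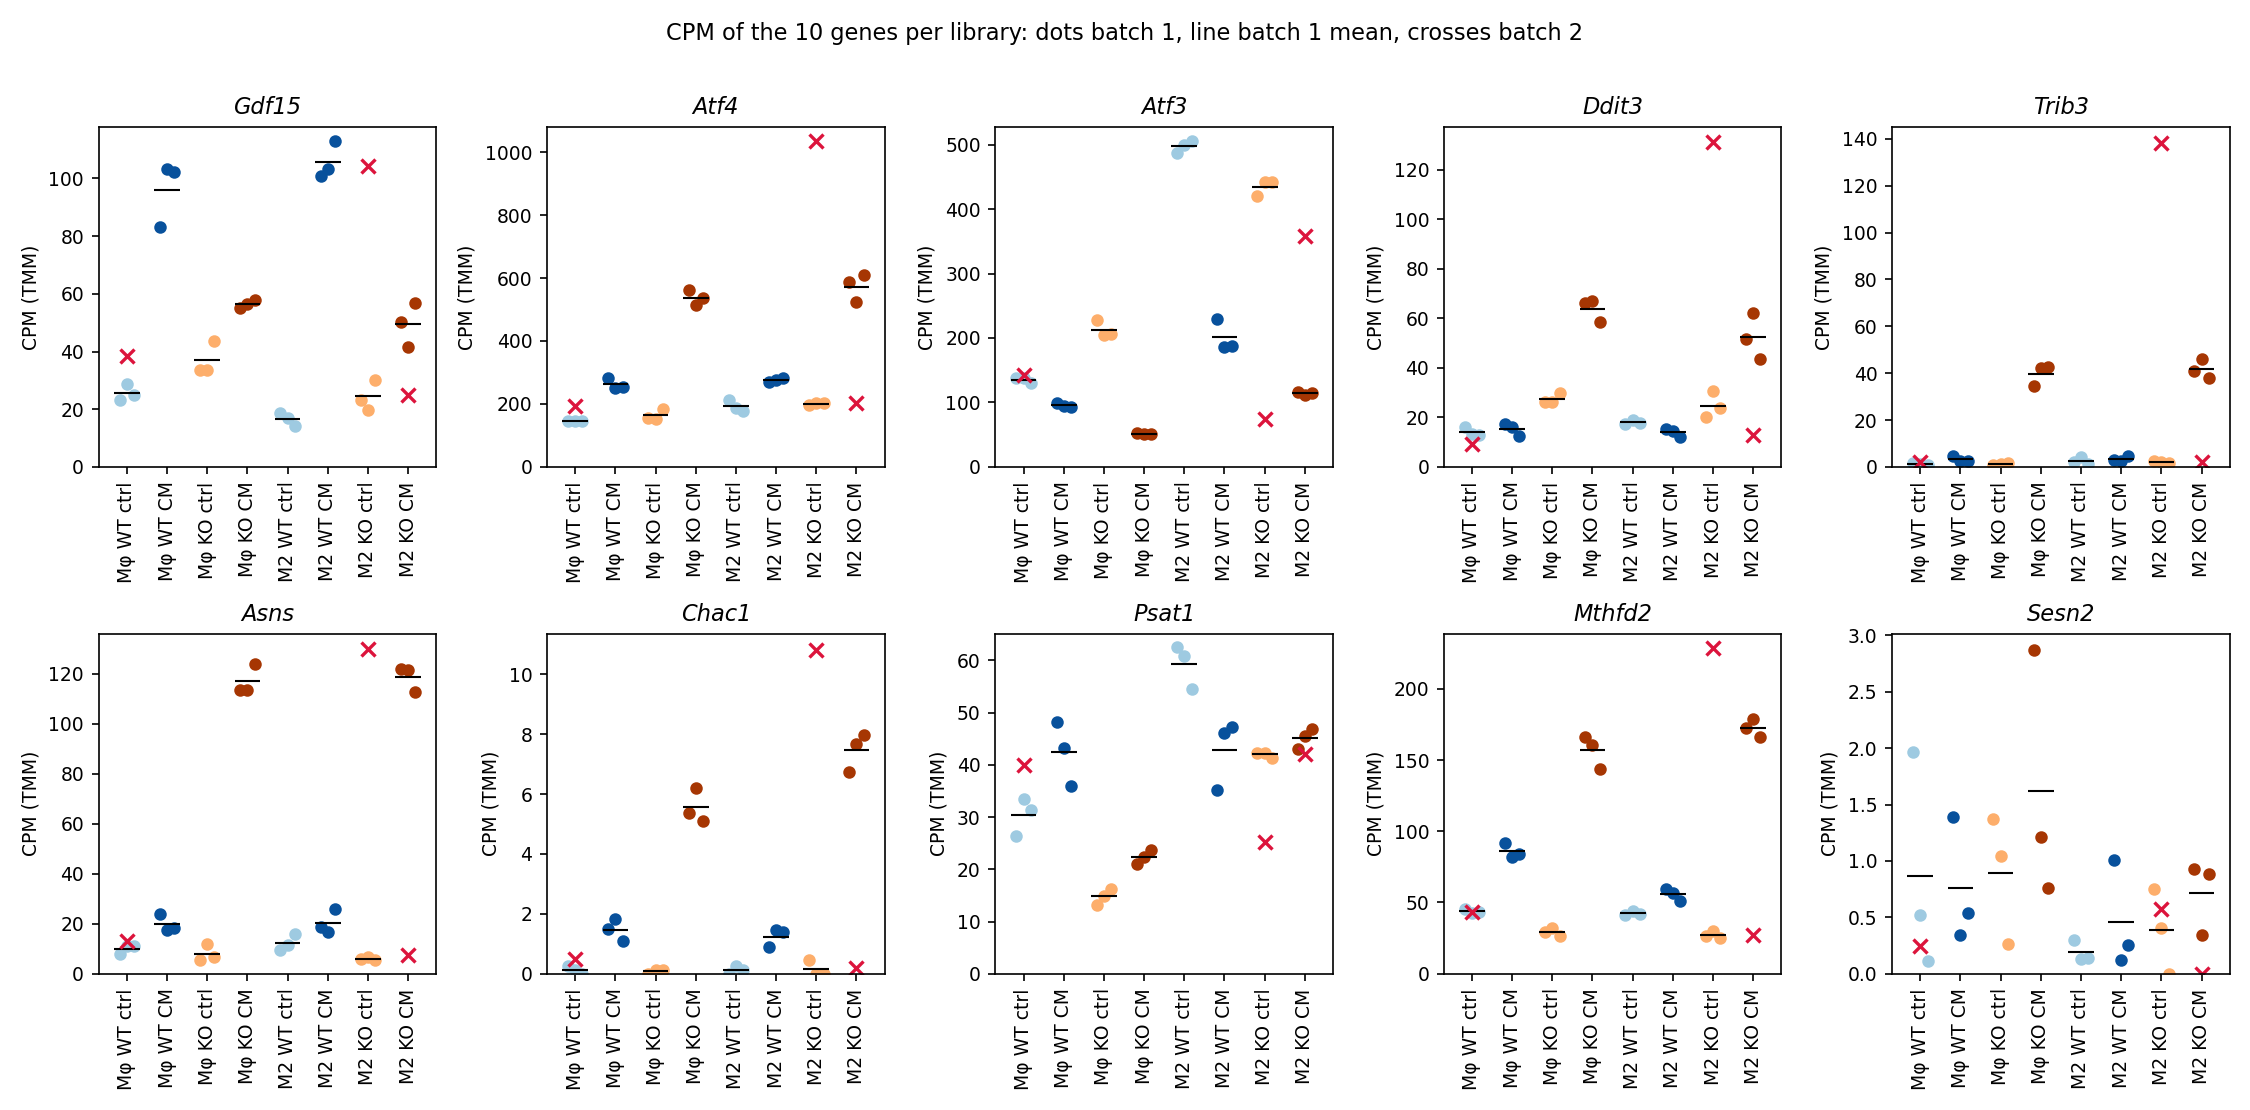
CPM after TMM scaling (vertical axes, each from 0) of the 10 genes in each of the 8 groups (horizontal axes). Dots are the libraries of batch 1, black lines their means and red crosses the 3 libraries of batch 2. CPM of the crosses come from a scaling of all 27 libraries, and those of the dots from batch 1 alone. By batch 1 means, Trib3, Asns, Chac1, Ddit3, Mthfd2 and Atf4 were highest in TRAP1 KO cells in MPNST-CM. Gdf15 was highest in WT cells in MPNST-CM and Atf3 in M2 cells in control medium. The cross of TRAP1 KO M2 control lies above all dots for Trib3, Asns, Chac1, Ddit3, Mthfd2 and Atf4.

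The response to the tumor medium was asked of each cell type and genotype in turn. In MPNST-CM against control medium, 8 of the 10 genes passed the test in WT Mφ (edgeR, adjusted p under 0.05), 7 of them higher and 1 lower. Of all genes tested, 21.2% were called there, 11.3% higher and 9.96% lower. In WT M2, 5 were higher and 2 lower, against 24.5% of all genes (11.2% higher and 13.3% lower). In TRAP1 KO Mφ, 8 were higher and 1 lower, against 32.9% (14.8% and 18.1%). For TRAP1 KO M2 these were 7 and 1, against 36.8% (16.7% and 20.2%). The libraries of the 2 media did not overlap for 8 genes in WT Mφ, 8 in WT M2, 9 for TRAP1 KO Mφ and 9 for TRAP1 KO M2, where 33.3%, 39.3%, 43.1% and 49.2% of all genes did not overlap. Atf4, Asns, Chac1, Mthfd2 and Gdf15 were higher in all 4 of these comparisons and Atf3 was lower in all 4. The median log2 fold change over the 10 genes was 0.91 in WT Mφ, 0.46 in WT M2, 1.47 for TRAP1 KO Mφ and 1.29 for TRAP1 KO M2, beside medians of all genes between -0.04 and -0.01. With all 27 libraries, the number called by edgeR was 1 in WT Mφ, 1 in WT M2, 7 for TRAP1 KO Mφ and 0 for TRAP1 KO M2, where 1 had an unadjusted p under 0.05. The share of all genes called in these comparisons of that fit is not given here. Whether the smaller counts are particular to the 10 genes can thus not be told. In bulk libraries, a change in the number of cells of one kind and a change in RNA per cell cannot be told apart.

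**Figure D2:**
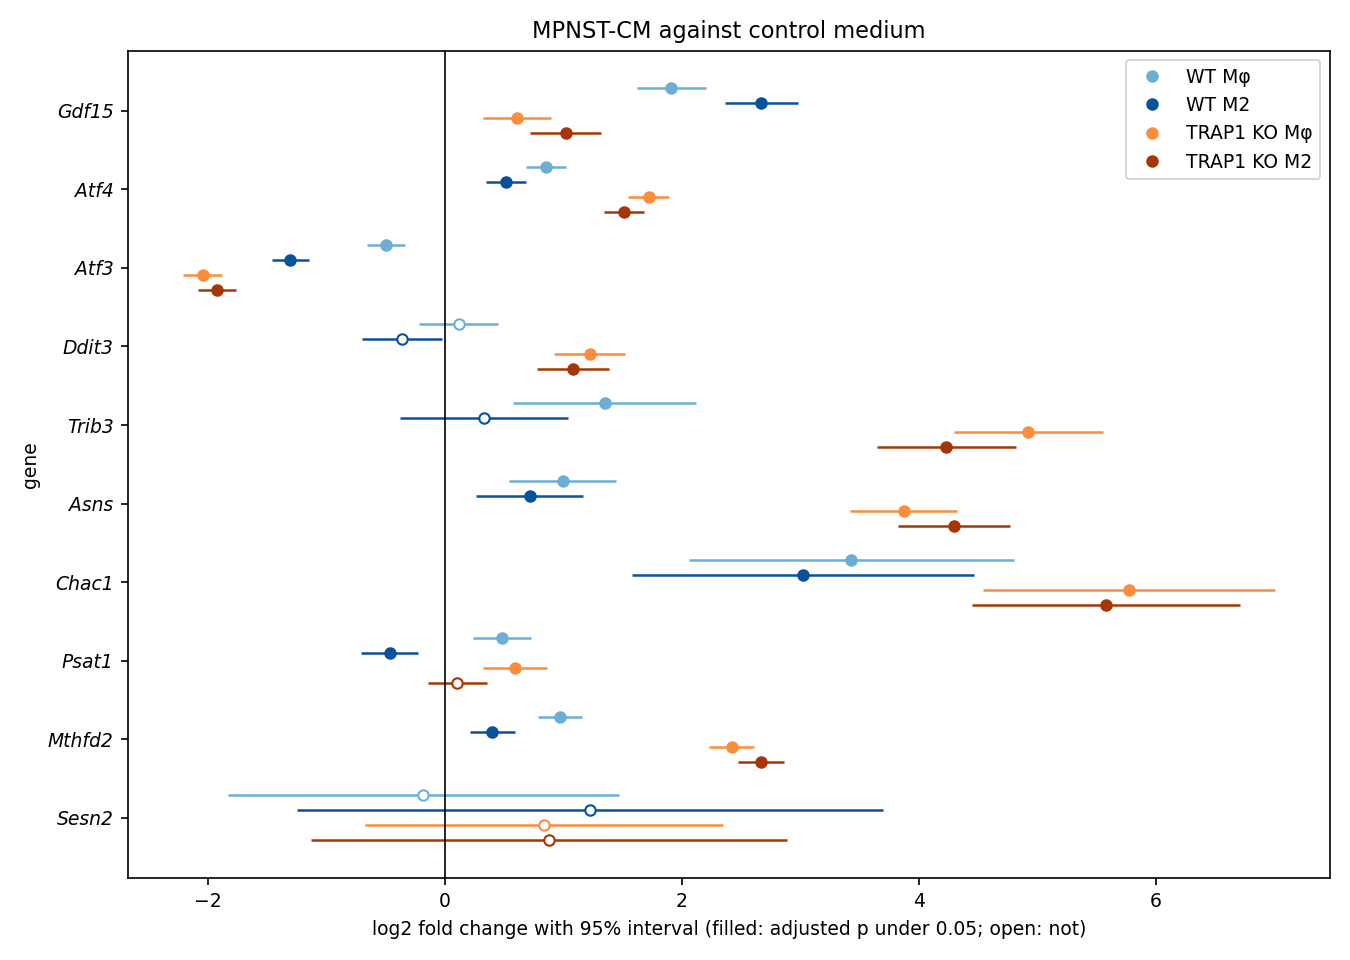
Log2 fold change in MPNST-CM against control medium (horizontal axis) with its 95% interval for each of the 10 genes (vertical axis), in WT Mφ, WT M2, TRAP1 KO Mφ and TRAP1 KO M2 (3 libraries a group). Filled circles passed an adjusted p of 0.05. Asns stood at 0.99 and 0.71 in WT cells and at 3.87 and 4.30 in TRAP1 KO cells, while Gdf15 stood at 1.91 and 2.67 in WT cells and at 0.61 and 1.02 in TRAP1 KO cells. The fitted values of Chac1 and Sesn2 rest on few counts.

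The effect of losing TRAP1 was asked within each medium. In MPNST-CM, 6 of the 10 genes were higher and 3 lower in TRAP1 KO Mφ than in WT Mφ, against 38.2% of all genes called, and in M2 6 were higher and 2 lower, against 34%. The 6 higher genes were Atf4, Ddit3, Trib3, Asns, Chac1 and Mthfd2 in both cell types, and Gdf15 and Atf3 were lower in both. In control medium, 3 were higher and 2 lower in TRAP1 KO Mφ than in WT Mφ, against 16.6% of all genes (8.64% higher and 7.97% lower). In M2 2 were higher and 3 lower, against 16.4% (8.56% and 7.87%), and 1 higher and 4 lower with median-of-ratios scaling and by DESeq2, where Ddit3 was not called and Atf3 was. The genotypes did not overlap for 9 genes in Mφ and 8 in M2 in MPNST-CM, against 46.1% and 46.5% of all genes, and for 6 and 6 in control medium, against 31.7% and 37.5%. From all 27 libraries the counts called were 3 and 1 in MPNST-CM and 1 and 2 in control medium. In MPNST-CM the share of all genes called was also lower in that fit, as given below with the lists. In batch 1 alone, 19.1% of all genes in MPNST-CM were called higher and 19.2% lower in Mφ, and 17.2% and 16.8% in M2.

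Whether the response to MPNST-CM itself differed between the genotypes was tested as the difference of the responses. In Mφ, 5 of the 10 genes had a larger log2 fold change in TRAP1 KO than in WT and 2 a smaller one, against 19.7% of all genes called (8.17% larger and 11.5% smaller). In M2 these were 6 and 2, against 20.2% (9.36% and 10.8%). In the fit of all 27 libraries, edgeR called 0 in Mφ, where 2 had an unadjusted p under 0.05, and 1 in M2. These differences share their libraries with the comparisons above and are given gene by gene below.

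**Figure D3:**
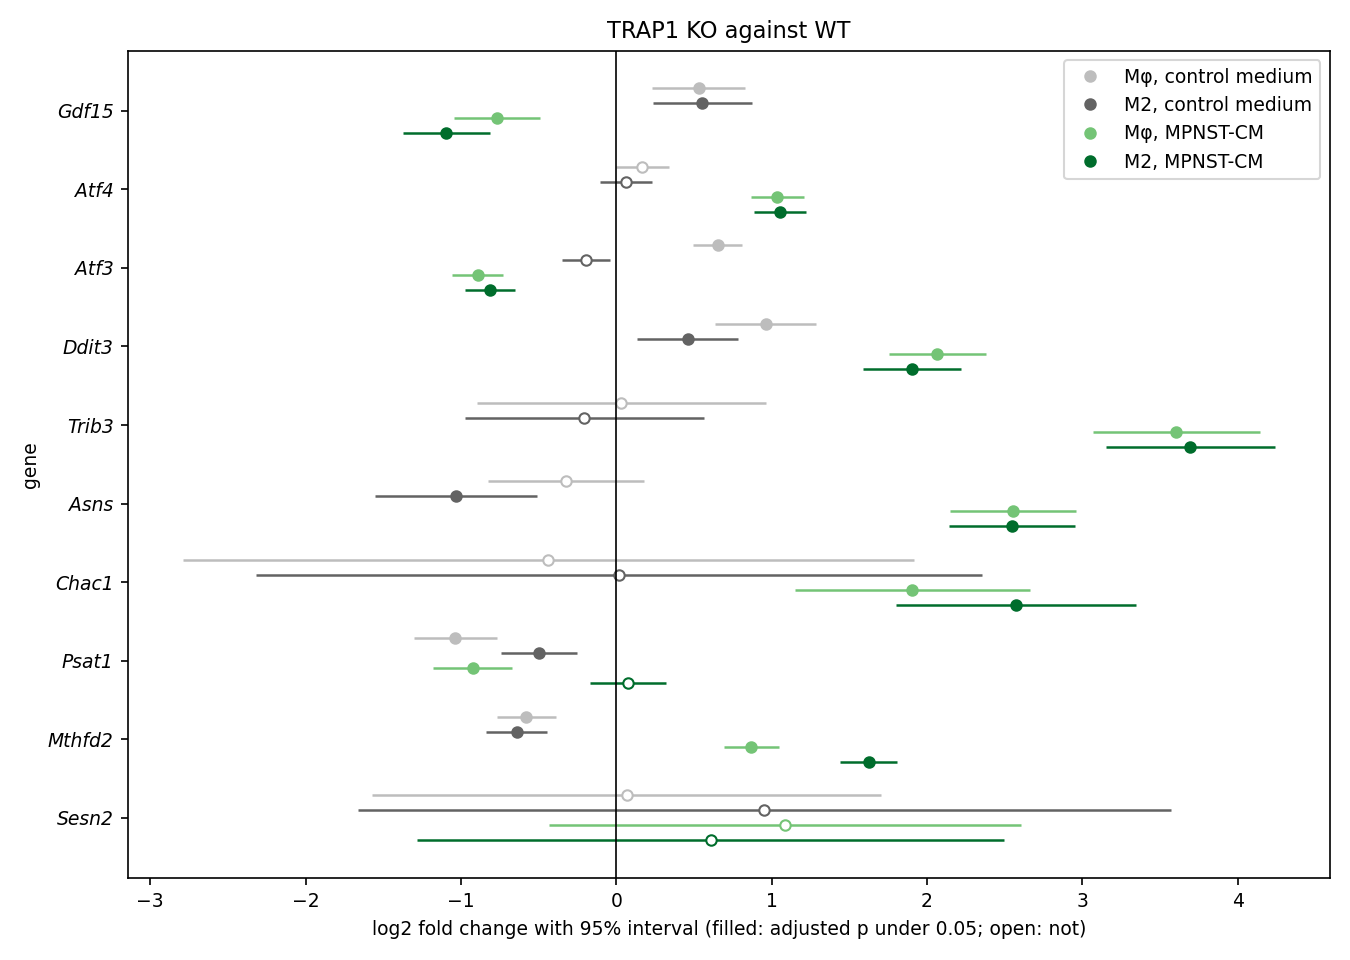
Log2 fold change in TRAP1 KO against WT (horizontal axis) with its 95% interval for each of the 10 genes (vertical axis), in Mφ and M2 in control medium (grey) and in MPNST-CM (green), 3 libraries a group. Filled circles passed an adjusted p of 0.05. Gdf15 was at 0.53 and 0.55 in control medium and at -0.77 and -1.09 in MPNST-CM, and Mthfd2 at -0.58 and -0.64 in control medium and at 0.87 and 1.62 in MPNST-CM.

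Atf4, the central transcription factor of the response, was 2.05 times as high in TRAP1 KO as in WT Mφ and 2.08 times as high in M2 in MPNST-CM. In WT Mφ its level was 145, 145 and 146 CPM in control medium and 250.4, 255 and 281 CPM in MPNST-CM. In TRAP1 KO Mφ it was 152, 155 and 183 CPM in control medium and 514, 538 and 562 CPM in MPNST-CM. Every library in MPNST-CM was above every library in control medium, and in MPNST-CM the genotypes did not overlap. The log2 fold change with MPNST-CM was 0.85 ± 0.08 (SE) in WT Mφ (adjusted p = 2.23e-08) and 1.72 ± 0.08 in TRAP1 KO Mφ (3.86e-15). This is a difference of 0.87 ± 0.12 (2.41e-06). M2 cells gave the same order. In control medium they had 177, 187 and 214 CPM in WT and 196, 203 and 204 CPM in TRAP1 KO. In MPNST-CM they had 270.3, 275 and 282 CPM in WT and 522, 587 and 609 CPM in TRAP1 KO. There the log2 fold change was 0.52 ± 0.08 in WT (2.35e-05) and 1.51 ± 0.08 in TRAP1 KO (4.27e-14). These differ by 0.99 ± 0.12 (3.34e-07). In control medium the genotypes differed by 0.17 in Mφ (95% interval -0.0017 to 0.34, adjusted p = 0.19) and by 0.06 in M2 (-0.11 to 0.23, 0.67), which did not pass the test.

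Ddit3, whose product CHOP works downstream of ATF4, changed with MPNST-CM in TRAP1 KO cells and did not pass the test in WT cells. In control medium it was at 12.99, 13.2 and 16.1 CPM in WT Mφ and at 26.1, 26.2 and 29.98 CPM in Mφ with TRAP1 KO. In MPNST-CM it was at 12.3, 16.02 and 17.5 CPM in WT Mφ and at 58.3, 66.3 and 67.1 CPM in TRAP1 KO Mφ. TRAP1 KO Mφ were thus above WT Mφ in both media without overlap, by a log2 fold change of 0.96 ± 0.16 in control medium (adjusted p = 5.51e-05) and 2.07 ± 0.15 in MPNST-CM (2.1e-11). In M2 cells Ddit3 was at 17.4, 17.5 and 18.9 CPM in WT and 19.96, 23.6 and 30.5 CPM in TRAP1 KO in control medium, and at 12.1, 14.5 and 15.3 CPM in WT and 43.4, 51.5 and 62.0 CPM in TRAP1 KO in MPNST-CM. The log2 fold change with MPNST-CM was 0.12 ± 0.16 in WT Mφ (0.69), -0.36 ± 0.16 in WT M2 (0.11), 1.22 ± 0.15 in TRAP1 KO Mφ (1.48e-07) and 1.08 ± 0.15 in M2 with TRAP1 KO (1.24e-06). It was larger in TRAP1 KO than in WT by 1.10 ± 0.22 in Mφ (0.00043) and by 1.44 ± 0.22 in M2 (1.85e-05). The genotype difference of M2 in control medium, 0.46 ± 0.16 (0.045), lost its call in 12 of the 24 fits that each left out 1 library, with adjusted p between 0.020 and 0.34. These were the fits without WT M2 control replicate 2, 3 or 4, TRAP1 KO M2 control replicate 2 or 3, TRAP1 KO M2 MPNST-CM replicate 1, WT M2 MPNST-CM replicate 2, WT Mφ control replicate 2 or 3, and replicate 2 of TRAP1 KO Mφ control, WT Mφ MPNST-CM or TRAP1 KO Mφ MPNST-CM. On GRCm38 a second protein-coding gene model named Ddit3 lies inside the first on the same strand, at chr10:127290829-127293753. How the counting treated this second model is not given. The first lies at chr10:127290774-127296288. On the opposite strand it overlaps Gm4189, a processed transcript, and Mars1, a tRNA synthetase gene. Whether the counting used strand is not given in the sources used here. Mars1 was itself higher in TRAP1 KO than in WT in MPNST-CM, at 70.5 and 39.7 CPM in Mφ and 68.0 and 36.6 CPM in M2 (means of 3), and without strand the reads of the pair cannot be told apart. On that build Atf3 and Psat1 also overlap, on the opposite strand, a small RNA gene and a processed pseudogene in that order, and Mthfd2 and Sesn2 each overlap 1 gene model on their own strand.

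Atf3, a stress-induced repressor that is also raised by Toll-like receptor signalling in macrophages, went against the other factors. It was at 129.8, 137 and 138 CPM in WT Mφ and at 204, 206 and 228 CPM in TRAP1 KO Mφ in control medium, and at 92.6, 94.7 and 99.1 CPM and at 50.6, 51.7 and 52.1 CPM in MPNST-CM. TRAP1 KO Mφ therefore had the higher level in control medium and the lower one in MPNST-CM, without overlap in either. The log2 fold change with MPNST-CM was -0.50 ± 0.08 in WT Mφ (adjusted p = 2.82e-05) and -2.05 ± 0.08 in TRAP1 KO Mφ (5.49e-17), a difference of -1.55 ± 0.11 (4.89e-11). In M2, Atf3 was at 487, 499.9 and 505 CPM in WT and 419.8, 442 and 443 CPM in TRAP1 KO in control medium, and at 185, 188 and 230.2 CPM and 112, 115 and 117 CPM in MPNST-CM. It fell by 1.31 ± 0.08 on the log2 scale in WT M2 (5.78e-13) and by 1.92 ± 0.08 in TRAP1 KO M2 (9.74e-17), with a difference of -0.62 ± 0.11 (9.86e-05). The genotype difference was 0.65 ± 0.08 in Mφ in control medium (4.5e-07), -0.89 ± 0.08 in Mφ in MPNST-CM (9.12e-10) and -0.81 ± 0.08 in M2 in MPNST-CM (3.35e-09). In M2 in control medium it was -0.19 ± 0.08 (0.079) and passed in the DESeq2 fit (0.012), with adjusted p between 0.024 and 0.13 over the 24 fits that left out 1 library, under 0.05 without WT M2 MPNST-CM replicate 1.

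Trib3, a pseudokinase that ATF4 and CHOP induce and that restrains them in turn, had the widest range of the genes with counts in every library. In control medium it was between 0.684 and 4.02 CPM in all 12 libraries, and in WT cells in MPNST-CM between 2.32 and 4.63 CPM. In TRAP1 KO cells in MPNST-CM it was at 34.3, 42.2 and 42.4 CPM in Mφ and at 37.97, 40.7 and 46.1 CPM in M2, above every other library of batch 1. With MPNST-CM the log2 fold change was 4.92 ± 0.30 in TRAP1 KO Mφ (adjusted p = 9.08e-13) and 4.23 ± 0.28 in M2 of that genotype (3.9e-12), which are folds of 30.3 and 18.8. It was 1.35 ± 0.37 in WT Mφ (0.011) and 0.33 ± 0.34 in WT M2 (0.56). The call in WT Mφ was lost without WT Mφ MPNST-CM replicate 1 or without WT Mφ control replicate 3, with adjusted p between 0.0043 and 0.079 over the 24 such fits. The difference between genotypes in response was 3.57 ± 0.54 in Mφ (1.79e-05) and 3.90 ± 0.46 in M2 (5.35e-07).

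Chac1, which encodes an enzyme that degrades glutathione, had few counts, with 11 of the 24 libraries under 3 counts, and its counts were summed per group for a ratio with an exact interval that covers counting error only. In control medium it had 2, 1 and 0 counts in WT Mφ, 0, 1 and 1 in TRAP1 KO Mφ, 0, 2 and 1 in WT M2 and 3, 0 and 0 in TRAP1 KO M2, so that a group together held 3 counts in WT Mφ, 2 in TRAP1 KO Mφ, 3 in WT M2 and 3 in TRAP1 KO M2. In MPNST-CM it had 13, 16 and 10 counts in WT Mφ (39 in all), 43, 51 and 40 in TRAP1 KO Mφ (134), 7, 12 and 11 in WT M2 (30) and 51, 68 and 63 in TRAP1 KO M2 (182). All libraries in MPNST-CM were above all libraries in control medium. The ratio of TRAP1 KO to WT in MPNST-CM was 3.79 (95% interval 2.64 to 5.57) in Mφ and 6.01 (4.07 to 9.17) in M2. The ratio of MPNST-CM to control medium was 12.03 (3.82 to 60.9) in WT Mφ, 8.92 (2.77 to 45.7) in WT M2, 64.7 (17.6 to 539) for TRAP1 KO Mφ and 53.4 (17.97 to 261) in TRAP1 KO M2. The test across genes called all 4 responses (adjusted p between 4.28e-09 and 0.0018) and both genotype differences in MPNST-CM (0.00016 and 4.79e-06). It did not call the difference between genotypes in response, which was 2.34 ± 1.33 in Mφ (0.25) and 2.56 ± 1.30 in M2 (0.18, between 0.019 and 0.65 when 1 library was left out, and called only without TRAP1 KO M2 control replicate 1).

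Sesn2, a leucine sensor that holds back mTORC1, was called in none of the 16 comparisons and was under 3 counts in 8 of the 24 libraries. Its highest level was 2.87 CPM, in a library of TRAP1 KO Mφ with MPNST-CM, and the lowest 0 CPM, in a library of TRAP1 KO M2 in control medium. The spread within a group was wide, as in WT Mφ in control medium, at 0.114, 0.521 and 1.96 CPM. In each group that has a replicate 1, that library had the highest Sesn2 level of the group. WT M2 control has no replicate 1. Summed over libraries, the ratio of TRAP1 KO to WT in MPNST-CM was 2.15 (1.23 to 3.90) in Mφ, from 39 and 20 counts, and 1.53 (0.68 to 3.62) in M2, from 17 and 11 counts. These intervals leave out the spread between libraries. At an unadjusted p under 0.05, 0 of the 16 comparisons passed in edgeR, and DESeq2 called none of those it gave an adjusted p for. M2 against Mφ in WT cells in control medium had an adjusted p between 0.047 and 0.75 over the 24 fits that left out 1 library, and was called without WT Mφ control replicate 3.

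Asns, the synthetase that makes asparagine from aspartate and glutamine, was higher with MPNST-CM in both cell types of both genotypes. In WT Mφ it was at 7.85, 11.1 and 11.1 CPM in control medium and at 17.5, 18.2 and 24.0 CPM in MPNST-CM. In TRAP1 KO Mφ it was at 5.63, 6.58 and 11.8 CPM in control medium and at 113, 113 and 124 CPM in MPNST-CM. The media did not overlap in either genotype, and in MPNST-CM every TRAP1 KO library was above every WT library. With MPNST-CM the log2 fold change was 0.99 ± 0.22 in WT Mφ (adjusted p = 0.0020) and 3.87 ± 0.22 in TRAP1 KO Mφ (1.43e-12), a difference of 2.88 ± 0.31 (2.25e-07). In M2 cells it was at 9.46, 11.5 and 16.005 CPM in WT and 5.38, 5.85 and 6.83 CPM in TRAP1 KO in control medium, and at 16.6, 18.5 and 25.8 CPM in WT and 113, 122 and 122 CPM in TRAP1 KO in MPNST-CM. TRAP1 KO M2 cells were thus below WT M2 cells in control medium, by 1.03 ± 0.25 on the log2 scale (0.0059), and above them in MPNST-CM, by 2.55 ± 0.20 (5.13e-10). The response was 0.71 ± 0.22 in WT M2 (0.018) and 4.30 ± 0.23 in TRAP1 KO M2 (4.38e-13). The difference was 3.58 ± 0.32 (1.44e-08). The response in WT M2 lost its call without WT M2 control replicate 2, WT M2 control replicate 3 or WT M2 MPNST-CM replicate 3, with adjusted p between 0.0038 and 0.12 over the 24 such fits. In Mφ in control medium the genotype difference of -0.32 ± 0.24 (0.44) became -0.71 (0.042) without TRAP1 KO Mφ control replicate 2, in fits whose adjusted p lay between 0.042 and 0.82.

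Mthfd2, the mitochondrial enzyme of the folate cycle, changed sides between the media. In control medium it was lower in cells without TRAP1 than in WT cells, at 26.4, 29.4 and 32.2 CPM against 42.7, 43.2 and 45.5 CPM in Mφ and at 25.1, 26.6 and 29.9 CPM against 41.3, 41.7 and 44.04 CPM in M2. In MPNST-CM it was higher, at 144, 161 and 166 CPM against 82.2, 84.1 and 91.5 CPM in Mφ and at 166, 172 and 179 CPM against 51.2, 57.0 and 59.5 CPM in M2. The genotypes did not overlap in any of the 4 settings. Between genotypes the log2 fold change was -0.58 ± 0.09 in Mφ (adjusted p = 4.59e-05) and -0.64 ± 0.10 in M2 (2.23e-05) in control medium, and 0.87 ± 0.09 (6.9e-09) and 1.62 ± 0.09 (8.48e-14) in MPNST-CM. The response to MPNST-CM was 0.97 ± 0.09 in WT Mφ, 0.40 ± 0.09 in WT M2, 2.42 ± 0.09 for TRAP1 KO Mφ and 2.66 ± 0.09 for TRAP1 KO M2, and it was larger in TRAP1 KO by 1.45 ± 0.13 in Mφ (2.12e-09) and 2.26 ± 0.13 in M2 (1.3e-12).

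Psat1, which makes phosphoserine on the way to serine, did not follow the other enzymes. Its lowest level was in TRAP1 KO Mφ, at 13.3, 14.9 and 16.3 CPM in control medium and 21.1, 22.3 and 23.7 CPM in MPNST-CM, against 26.4, 31.4 and 33.5 CPM and 35.9, 43.2 and 48.2 CPM in WT Mφ. Its highest level was in WT M2 in control medium, at 54.5, 60.8 and 62.6 CPM. The other M2 groups lay close together, at 41.4, 42.3 and 42.3 CPM in TRAP1 KO in control medium, 35.2, 46.1 and 47.3 CPM in WT in MPNST-CM and 42.99, 45.5 and 46.95 CPM in TRAP1 KO in MPNST-CM. With MPNST-CM Psat1 rose in both kinds of Mφ, by 0.48 ± 0.12 in WT (adjusted p = 0.0049) and 0.59 ± 0.13 in TRAP1 KO (0.00085), with no called difference between them (0.11, 95% interval -0.25 to 0.48, 0.74). In WT M2 it fell by 0.47 ± 0.12 (0.0039), and in TRAP1 KO M2 the change was 0.10 (-0.14 to 0.35, 0.54). The fall in WT M2 was not called without WT M2 MPNST-CM replicate 1 or WT M2 control replicate 2 (adjusted p 0.0022 to 0.11 over the 24 fits), and the difference between genotypes in M2, 0.57 ± 0.17 (0.016), was not called without either of these, WT M2 control replicate 3 or TRAP1 KO M2 control replicate 3 (0.0098 to 0.096). TRAP1 KO cells were lower than WT cells by 1.04 ± 0.13 (1.3e-06) and 0.92 ± 0.12 (9.64e-07) in Mφ in control medium and MPNST-CM and by 0.50 ± 0.12 in M2 in control medium (0.0041), whereas in M2 in MPNST-CM they differed by 0.08 (-0.17 to 0.32, 0.67).

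Gdf15, the secreted product among these genes, was highest in WT cells in MPNST-CM. It therefore parted from Atf4, Ddit3, Trib3, Asns, Chac1 and Mthfd2, which were higher in TRAP1 KO there. It was not alone in this, as Atf3 was also lower in TRAP1 KO in MPNST-CM, and Psat1 was in Mφ. In WT Mφ it was at 23.1, 25.1 and 28.7 CPM in control medium and at 83.0, 102 and 103 CPM in MPNST-CM. In TRAP1 KO Mφ it was at 33.6, 33.6 and 43.5 CPM in control medium and at 54.9, 56.4 and 57.7 CPM in MPNST-CM. WT Mφ were below TRAP1 KO Mφ in control medium and above them in MPNST-CM, and neither pair of groups overlapped. The log2 fold change with MPNST-CM was 1.91 ± 0.14 in WT Mφ (adjusted p = 1.6e-10) and 0.61 ± 0.14 in TRAP1 KO Mφ (0.0011), a difference of -1.30 ± 0.20 (1.65e-05). In M2, Gdf15 was at 14.2, 16.97 and 18.8 CPM in WT and 19.8, 23.3 and 30.2 CPM in TRAP1 KO in control medium, and at 101, 103 and 113 CPM in WT and 41.7, 50.1 and 56.8 CPM in TRAP1 KO in MPNST-CM. The same crossing was seen, with responses of 2.67 ± 0.15 in WT (2.66e-13) and 1.02 ± 0.14 in TRAP1 KO (2.18e-06) and a difference of -1.65 ± 0.21 (9.63e-07). Between genotypes in MPNST-CM, TRAP1 KO cells were lower by 0.77 ± 0.13 in Mφ (4.76e-05) and 1.09 ± 0.14 in M2 (3.8e-07).

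In control medium, Gdf15 was higher in TRAP1 KO than in WT cells by 0.53 ± 0.14 in Mφ (adjusted p = 0.010) and 0.55 ± 0.16 in M2 (0.014), and both of these calls depended on single libraries. The first was lost without WT Mφ control replicate 1 or TRAP1 KO Mφ control replicate 3 (0.0063 to 0.10 over the 24 fits), and the second without WT M2 control replicate 3, WT M2 control replicate 4 or TRAP1 KO M2 control replicate 3 (0.0078 to 0.19). Ordered by mean level, Gdf15 stood at 106 ± 6.37 CPM (SD, n = 3) in WT M2 and 96.1 ± 11.4 in WT Mφ in MPNST-CM, 56.4 ± 1.39 for TRAP1 KO Mφ and 49.5 ± 7.58 for M2 of that genotype in MPNST-CM, 36.9 ± 5.71 for TRAP1 KO Mφ and 25.6 ± 2.84 in WT Mφ in control medium, and 24.4 ± 5.29 in TRAP1 KO M2 and 16.6 ± 2.32 in WT M2 in control medium. In MPNST-CM, the test did not separate the WT M2 and WT Mφ levels (adjusted p = 0.50), nor those of TRAP1 KO Mφ and M2 (0.50). Ranges overlapped between M2 with MPNST-CM and Mφ with DMEM of TRAP1 KO, and between WT Mφ and TRAP1 KO M2 with DMEM. Among the genes whose log2 CPM over the 24 libraries was most like that of Gdf15, of 9730 genes, were Sypl (Pearson's r 0.89), Slc25a1 (0.88), Ccl12 (0.88) and Col18a1 (0.87). These libraries share their groups, so the r values describe likeness only.

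**Figure D4:**
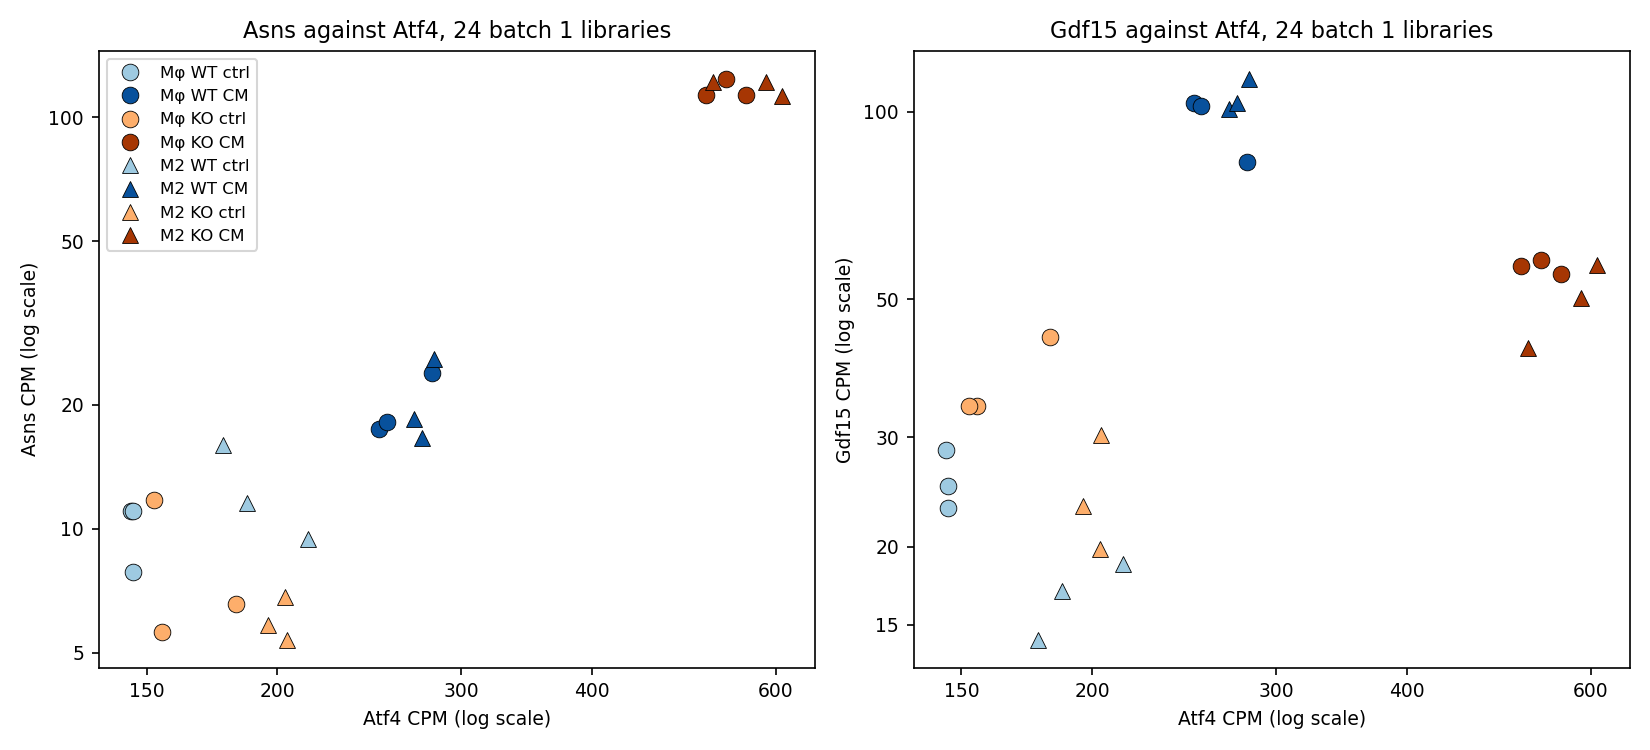
CPM of Asns (left, vertical log axis) and of Gdf15 (right, vertical log axis) against CPM of Atf4 (horizontal log axes) in the 24 libraries of batch 1, coloured by medium and genotype, with circles for Mφ and triangles for M2. The TRAP1 KO libraries in MPNST-CM lie at the top of both axes for Asns, at 113 CPM or more, but below the WT libraries in MPNST-CM for Gdf15, at 41.7 to 57.7 CPM against 83.0 to 113 CPM.

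The 10 genes did not move as 1 block over the 24 libraries. Pearson's r of log2 CPM with Atf4 was 0.96 for Trib3, 0.94 for Chac1, 0.94 for Asns, 0.91 for Mthfd2 and 0.74 for Ddit3. It was 0.49 for Gdf15, 0.32 for Sesn2, 0.11 for Psat1 and -0.61 for Atf3. These values are over libraries that fall into the 8 groups and are descriptions only, as the plot of Asns and Gdf15 against Atf4 shows.

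M2 polarization was compared with Mφ in each genotype and medium. In control medium, M2 cells differed from Mφ in 4 of the 10 genes in WT, 3 higher and 1 lower, against 37.2% of all genes called (19.1% and 18.1%). In TRAP1 KO these were again 3 and 1, against 28.5% (15.6% and 12.9%). The share in WT was near that of all genes. Levels did not overlap for 5 genes in WT and 4 in TRAP1 KO, against 51.7% and 40.7% of all genes. Atf3 was higher in M2 by 1.88 ± 0.08 in WT (adjusted p = 1.32e-16) and 1.03 ± 0.08 in TRAP1 KO (2.82e-11), and Psat1 by 0.96 ± 0.12 (2.9e-07) and 1.502 ± 0.13 (5.38e-10). Atf4 was higher by 0.41 ± 0.08 (0.00027) and 0.30 ± 0.08 (0.0065), and Gdf15 was lower by 0.62 ± 0.15 (0.0021) and 0.60 ± 0.15 (0.0025). Trib3 in WT, at 1.00 ± 0.40, missed the threshold (0.053, with 0.015 to 0.47 over the fits that left out 1 library) and was called without WT Mφ control replicate 1, WT Mφ MPNST-CM replicate 1, WT M2 MPNST-CM replicate 3 or WT M2 control replicate 4. In MPNST-CM, 2 of 10 were called in WT, against 24.9% of all genes (11.9% higher and 13% lower), namely Atf3 (1.08 ± 0.08, 2.91e-11) and Mthfd2 (-0.62 ± 0.09, 4.99e-06). In TRAP1 KO 2 were called, against 11.2% (6.71% and 4.47%), namely Atf3 (1.15 ± 0.08, 2.86e-11) and Psat1 (1.01 ± 0.12, 1.15e-06). Levels in MPNST-CM did not overlap for 2 genes in WT and 3 in TRAP1 KO, against 35.1% and 27.7% of all genes. Using all 27 libraries, these 4 counts of calls were 2, 4, 0 (edgeR, with 1 at an unadjusted p under 0.05) and 2. M2 and Mφ of WT responded to MPNST-CM differently for 4 genes, against 12.1% of all genes (5.23% larger and 6.91% smaller in M2), larger in M2 for Gdf15 (0.76 ± 0.20, 0.013) and smaller for Atf3 (-0.80 ± 0.11, 9.55e-06), Psat1 (-0.95 ± 0.17, 0.00031) and Mthfd2 (-0.57 ± 0.13, 0.0031). Given all 27 libraries, edgeR called 0, with 1 at an unadjusted p under 0.05. That of Gdf15 was lost without WT M2 control replicate 4 (0.0089 to 0.057 over the 24 fits), and Atf4, at -0.33 ± 0.12 (0.061), was called without TRAP1 KO Mφ control replicate 3 (0.048 to 0.28). Markers of the IL-4 response (Arg1, Retnla, Chil3 and Mrc1) summed to 681 to 753 CPM in Mφ in control medium, to 1171 to 1349 in WT Mφ and 2545 to 2665 in TRAP1 KO Mφ with MPNST-CM, and to 2629 to 4345 in M2. Of the 4, 1 was called higher with MPNST-CM in WT Mφ and 2 in TRAP1 KO Mφ, and most of the sum in Mφ was Mrc1, at a mean of 733 and 1281 CPM in WT and 723 and 2603 CPM in TRAP1 KO in the 2 media. In M2, the sum pooled markers that went opposite ways with MPNST-CM. Mean Retnla fell from 1673 to 318 CPM in WT and from 1896 to 227 in TRAP1 KO. Mean Chil3 fell from 286 to 97.4 and from 289 to 117. Arg1 rose from 92.0 to 632 and from 4.89 to 228, and Mrc1 from 753 to 2843 and from 558 to 3514. In TRAP1 KO Mφ with MPNST-CM, Retnla and Chil3 were at means of 0.958 and 0.415 CPM. The part of these markers in the differences was not tested. In TRAP1 KO cells the edgeR fit called 0 of the 10 genes, against 11.5% of all genes (5.48% and 6.01%), with 1 at an unadjusted p under 0.05 and 0 called by DESeq2. The fit of all 27 also called 0, with 5 at an unadjusted p under 0.05. Psat1 was the nearest, at -0.49 ± 0.18 (0.081), and passed when only the 4 groups concerned were fitted (0.034) and without WT M2 MPNST-CM replicate 1 (0.036), with adjusted p between 0.036 and 0.21 over the 24 fits.

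The other genes of the pathway were read from 9 lists, which do not contain the 10 genes. The list of ATF4 partners and further targets of ATF4 and CHOP had 13 of its 16 genes tested. In TRAP1 KO against WT cells in MPNST-CM, 8 were higher and 2 lower in Mφ and 10 higher and 1 lower in M2, with median log2 fold changes of 0.85 and 0.83 beside 0.04 and 0.05 over all genes. Of all genes, 19.1% were higher and 19.2% lower in Mφ and 17.2% and 16.8% in M2, shares that also stand beside the genotype counts of the lists that follow. Atf5, an ATF4-like factor of the mitochondrial stress response, was at 215 ± 12.7 CPM against 25.9 ± 0.310 in Mφ (log2 fold change 3.06 ± 0.12, adjusted p = 6.86e-17) and at 234 against 63.1 CPM in M2 (1.89 ± 0.11, 3.98e-13). Nupr1, a stress-induced chromatin protein, differed by 2.52 ± 0.16 (8.55e-13) and 2.66 ± 0.17 (2.73e-12), and Ddit4, an inhibitor of mTORC1, by 1.96 ± 0.14 in Mφ (1.23e-11). Cebpb and Cebpg, the binding partners of ATF4, named here after their values were seen, were higher in both cell types, by 0.85 each in Mφ and by 0.76 and 0.95 in M2. The members that were lower were Tnfrsf10b, a death receptor, in both cell types (-0.80 and -1.23) and Pmaip1, a pro-apoptotic BCL2 family gene, in Mφ (-0.64), also named after their values were seen. In control medium the same list gave 3 higher and 2 lower in Mφ and 0 higher and 3 lower in M2. Of all genes, 16.6% and 16.4% were called there. With MPNST-CM, 4 were higher and 2 lower in WT Mφ and in WT M2, and 8 higher with 2 lower for TRAP1 KO Mφ and 8 with 1 for TRAP1 KO M2. The shares of all genes were 11.3% higher and 9.96% lower in WT Mφ and 11.2% and 13.3% in WT M2. They were 14.8% and 18.1% for TRAP1 KO Mφ and 16.7% and 20.2% for TRAP1 KO M2.

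Of 12 further enzymes of serine, glycine and one-carbon metabolism, all tested, 3 were higher and 5 lower in TRAP1 KO Mφ than in WT Mφ in MPNST-CM, and 4 were higher and 4 lower in M2. The higher ones included Phgdh, the first enzyme of serine synthesis, by 1.63 in Mφ and 2.30 ± 0.30 in M2 (adjusted p = 7.03e-07), and Aldh1l2, a mitochondrial folate enzyme, by 3.71 ± 0.47 (3.96e-07) and 2.12 ± 0.44 (0.00039), at 4.13 against 0.303 CPM and 2.75 against 0.621 CPM. The lower ones included Tyms, which serves DNA synthesis in dividing cells, by 3.28 in Mφ and 2.04 in M2. In control medium 1 was higher and 6 lower in Mφ and 0 higher and 1 lower in M2. Of all genes, 16.6% and 16.4% were called in those 2 comparisons. In MPNST-CM the medians of the list were -0.16 and 0.13 beside 0.04 and 0.05 over all genes, and in control medium -0.54 and -0.08 beside 0.03 and 0.02. Among 8 tested enzymes of other amino acids, 4 were higher and 2 lower in both cell types, led upwards by Gpt2 (1.33 and 0.84), of alanine synthesis, and Aldh18a1 (1.19 and 0.93), of proline synthesis.

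Amino acid transporters (9 of 12 tested) were higher in 6 and lower in 2 cases in TRAP1 KO Mφ with MPNST-CM, and in 3 and 2 cases in M2. Slc7a5, the importer of leucine and other large amino acids, rose from 3.97 to 11.7 CPM in Mφ (1.56 ± 0.24, adjusted p = 7.48e-06) and from 3.07 to 9.46 CPM in M2 (1.62 ± 0.25, 1.12e-05), counted from WT to TRAP1 KO, and Slc1a4, an importer of alanine, serine and cysteine, differed by 2.46 ± 0.28 (7.28e-08) and 1.63 ± 0.27 (2.92e-05). Slc7a2, which imports arginine, was lower by 2.08 ± 0.47 (0.00091) and 2.72 ± 0.19 (7.2e-12). Cytosolic aminoacyl-tRNA synthetases, which load tRNA with amino acids, were all tested (20), with 10 higher and 5 lower in Mφ and 11 higher and 3 lower in M2. Sars was at 198 against 94.7 CPM in Mφ (1.06 ± 0.25, 0.0024) and at 185 against 78.0 CPM in M2 (1.25 ± 0.25, 0.0008). With MPNST-CM, 13 synthetases were higher and 0 lower in WT Mφ, 4 and 0 in WT M2, 13 and 1 for TRAP1 KO Mφ, and 14 and 0 for TRAP1 KO M2. Of all genes, 21.2%, 24.5%, 32.9% and 36.8% were called in these 4 comparisons, and 11.3%, 11.2%, 14.8% and 16.7% were higher. In WT M2 the share of synthetases called was near that of all genes. The medians of this list in those 4 comparisons were 0.50, 0.14, 0.71 and 0.79.

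**Figure D5:**
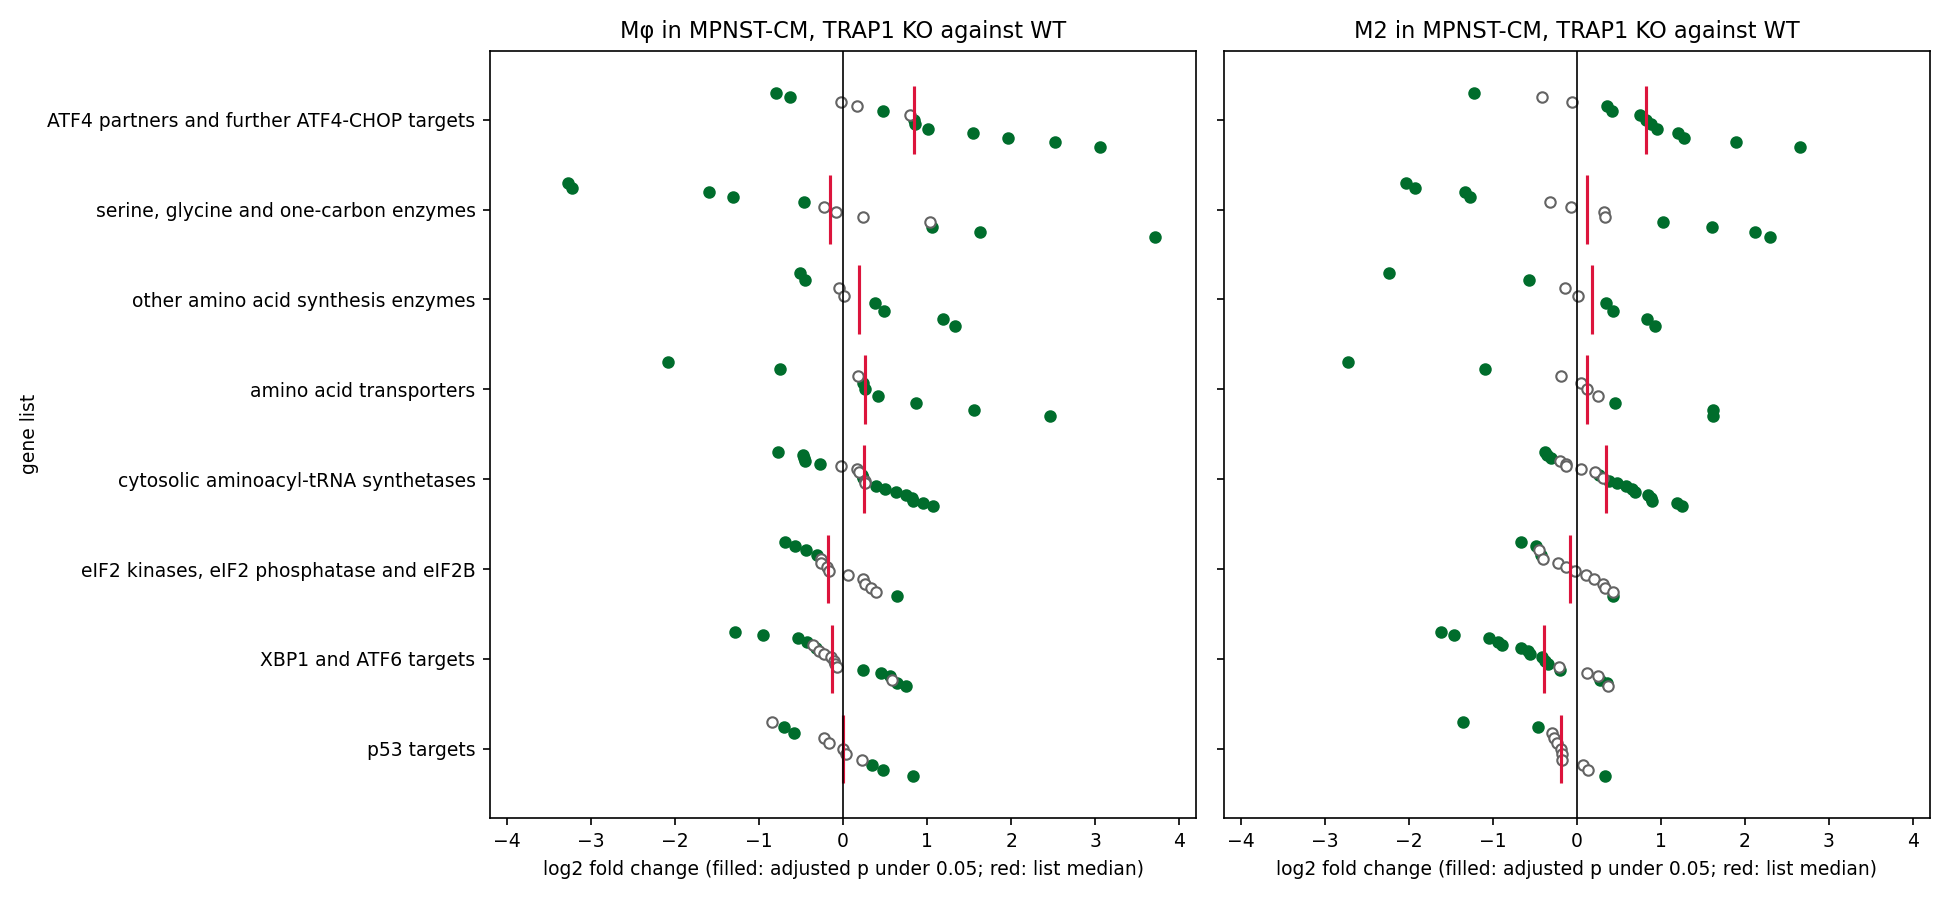
Log2 fold change in TRAP1 KO against WT in MPNST-CM (horizontal axes), in Mφ (left) and M2 (right), for the tested genes of 8 lists of the pathway and its neighbours (vertical axis). Filled circles passed an adjusted p of 0.05 and red lines are list medians. The median of the ATF4 list is at 0.85 and 0.83, and that of the XBP1 and ATF6 targets at -0.13 and -0.39.

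Upstream of ATF4, the eIF2 kinases, the eIF2 phosphatase and the exchange factor eIF2B were all tested (14 genes). In TRAP1 KO against WT in MPNST-CM, 1 was higher and 4 lower in Mφ and 1 higher and 3 lower in M2. Of the 4 kinase genes, 1 was called in M2 (Eif2ak2, the sensor of double-stranded RNA, 0.43 ± 0.11, adjusted p = 0.0033) and 0 in Mφ by edgeR, where 1 had an unadjusted p under 0.05. Dele1, which relays mitochondrial stress to the kinase HRI, was lower in both, by 0.57 ± 0.18 (0.012) and 0.66 ± 0.18 (0.0043). Since these proteins are controlled by phosphorylation and cleavage, their mRNA is no measure of their activity, which was not measured here.

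The other branches of the unfolded protein response were counted in the same way. Of 18 targets of XBP1 and ATF6, which serve folding in the endoplasmic reticulum, 5 were higher and 5 lower in TRAP1 KO Mφ with MPNST-CM, and 2 higher and 12 lower in M2. Sdf2l1 and Calr, of the endoplasmic reticulum lumen, were lower in both, by 1.28 ± 0.15 (adjusted p = 3.93e-07) and 0.95 ± 0.13 (2.51e-06) in Mφ and by 1.61 ± 0.15 (1.05e-08) and 1.46 ± 0.13 (3.4e-09) in M2, and Xbp1 itself was higher in Mφ by 0.75 ± 0.14 (0.00013). In WT Mφ with MPNST-CM, 9 of the 18 were higher and 0 lower, and in WT M2 0 higher and 2 lower. The counts were 5 and 3 for TRAP1 KO Mφ and 2 and 8 for TRAP1 KO M2, where of all genes 21.2%, 24.5%, 32.9% and 36.8% were called in these 4 comparisons. Of 11 tested p53 targets, a list kept because GDF15 and Sesn2 are also known targets of p53, 3 were higher and 2 lower in TRAP1 KO Mφ with MPNST-CM and 1 higher and 2 lower in M2, against 38.2% and 34% of all genes called. With MPNST-CM, 0 were higher and 3 lower in WT Mφ, WT M2 and TRAP1 KO M2, and 1 was higher and 3 lower in TRAP1 KO Mφ. In the list of the GDF15 receptor and the TGF-beta family, Gfral and Ret, the parts of the receptor, did not pass the filter on low counts. Of the 5 tested genes, 2 were higher and 1 lower in TRAP1 KO than in WT in MPNST-CM in each cell type. The higher ones were Tgfb3, a ligand, by 3.60 ± 0.55 (8.49e-06) in Mφ and 2.64 ± 0.72 (0.0055) in M2, and Tgfbr2, a receptor, by 0.81 ± 0.21 (0.0051) and 0.56 ± 0.21 (0.0496). Tgfbr1, a receptor of TGF-beta, was lower with MPNST-CM in all 4 comparisons, by 0.59 to 1.49 on the log2 scale, and lower in TRAP1 KO than in WT in MPNST-CM, by 0.62 ± 0.12 (0.00023) in Mφ and 0.48 ± 0.12 (0.0029) in M2.

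The lists were also counted in the fit of all 27 libraries, a choice made after the data were seen, for TRAP1 KO against WT in MPNST-CM, where 22.6% of all genes were called in Mφ and 12.2% in M2. The ATF4 list then had 6 higher and 0 lower in Mφ and 3 and 1 in M2, and the serine, glycine and one-carbon enzymes 1 and 5 and 1 and 3. The enzymes of other amino acids had 2 and 0 and 1 and 1. Of the transporters, 1 was higher in Mφ and 0 were called in M2 by edgeR, where 3 had an unadjusted p under 0.05. The synthetases had 0 higher and 4 lower in Mφ and 0 and 1 in M2 by edgeR, where 9 and 4 had an unadjusted p under 0.05, so the 10 and 11 called higher in the 24 libraries were not called in this fit. The eIF2 list had 1 and 3 and 0 and 3, the XBP1 and ATF6 targets 3 and 2 and 0 and 7, and the p53 targets 2 and 1 and 1 and 0. The TGF-beta list had 2 and 0 in Mφ and 0 called in M2 by edgeR, with 0 at an unadjusted p under 0.05.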

How the data were processed

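The deposited table holds counts per gene, made by the authors from QuantSeq 3′ mRNA libraries (stranded, 75-base single reads). The tools named are Trimmomatic, FastQC, HISAT2, SAMtools, featureCounts and DESeq, with mm39 in the submitters' processing notes and mm10 in the study's methods. Versions, annotation and strand setting of the counting are not given in the sources used here. Of 32 columns, 27 matched a described library and 5 were not used.

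Counts of 24 batch 1 libraries in 8 groups were fitted with edgeR 4.0.16 (limma 3.58.1, R 4.3.3) by the quasi-likelihood test, with TMM scaling, a filter on low counts by group and Benjamini-Hochberg adjustment over 13614 genes, called under 0.05. Levels are CPM. Totals of 7037684 to 11152362 counts set the precision. Intervals of fold changes are from the fit, and those of ratios of summed counts cover counting error only. 3′ tags have no length term, so levels were compared within genes. Correlations used log2 CPM with a prior count of 2. Named genes were the 10 genes and, of each list, at most 3 called genes per comparison with the largest change. The genes and lists were chosen with earlier results of these data known. DESeq2 1.42.0 and the other alternatives are in the closing section. The code was tested on simulated data. Some genes that met the naming rules are not reported here.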

Additional observations from a re-analysis of the deposited data

Results flagged for a closer look

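In groups of 4 libraries, the 3 of batch 1 and 1 of batch 2, a value was singled out where its gap to the nearest library divided by the group's range was above Dixon's 95% critical value. The CPM of batch 2 come from a scaling of all 27 libraries, and those of batch 1 from batch 1 alone. A value was singled out in 14 of 30 groups of 4, where chance gives 1.5. Of these, 9 were in the library labelled TRAP1 KO M2 control replicate 4, 4 in the library labelled TRAP1 KO M2 MPNST-CM replicate 4 and 1 in the library labelled WT Mφ control replicate 4.

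In the library labelled TRAP1 KO M2 control replicate 4, Gdf15 was at 104 CPM (19.8 to 30.2 in the other libraries of its label), Atf4 at 1036 (196 to 204), Ddit3 at 131 (19.96 to 30.5) and Trib3 at 138 (1.65 to 2.70). Asns was at 129.7 CPM (5.38 to 6.83), Chac1 at 10.8 (0 to 0.450) and Mthfd2 at 229 (25.1 to 29.9). Atf3 was lower, at 73.9 CPM (419.8 to 443), as was Psat1, at 25.3 (41.4 to 42.3). In the library labelled TRAP1 KO M2 MPNST-CM replicate 4, Atf3 was higher, at 358 CPM (112 to 117), while Asns at 7.58 (113 to 122), Chac1 at 0.208 (6.75 to 7.97) and Mthfd2 at 26.99 (166 to 179) were lower. In the library labelled WT Mφ control replicate 4, Atf4 was at 192 CPM (145 to 146).

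The response to MPNST-CM differed between TRAP1 KO and WT cells by the test of the difference itself. The log2 differences in Mφ were -1.30 for Gdf15, 0.87 for Atf4, -1.55 for Atf3, 1.10 for Ddit3, 3.57 for Trib3, 2.88 for Asns and 1.45 for Mthfd2. In M2 they were -1.65 for Gdf15, 0.99 for Atf4, -0.62 for Atf3, 1.44 for Ddit3, 3.90 for Trib3, 3.58 for Asns, 0.57 for Psat1 and 2.26 for Mthfd2. Between M2 and Mφ of WT the response differed by 0.76 for Gdf15, -0.80 for Atf3, -0.95 for Psat1 and -0.57 for Mthfd2.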

How the results depend on the processing

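Numbers of the 10 genes called are given in the order medium in WT Mφ, WT M2 and TRAP1 KO M2, genotype in Mφ and M2 in control medium and in Mφ and M2 in MPNST-CM. From all 27 libraries these were 1, 1, 0, 1, 2, 3 and 1, and with batch as a covariate 1, 1, 0, 1, 1, 4 and 1. For M2 against Mφ, all 27 libraries gave 2 in WT control and 0 in WT MPNST-CM, and with batch 2 and 0, beside 1 in TRAP1 KO control and 1 in TRAP1 KO MPNST-CM. For the differences in response, both gave 0 and 1 between genotypes in Mφ and M2 and 0 between WT M2 and WT Mφ. Where edgeR with the batch covariate called 0, an unadjusted p under 0.05 was found for 4 genes in TRAP1 KO M2, 3 between genotypes in Mφ and 1 each for M2 against Mφ in WT MPNST-CM and for the difference between WT M2 and WT Mφ. That between cell types in TRAP1 KO had 0 called and 0 at that p. Beside most of these counts, the share of all genes called in the same fit is not given here. A smaller count is thus not by itself a result about the 10 genes. The cause of the differences between the fits was not tested.

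In the fit of all 27, the log2 fold change with MPNST-CM in TRAP1 KO M2 reversed to -0.0404 for Gdf15, -0.28 for Ddit3 and -0.22 for Trib3, that of TRAP1 KO against WT M2 in control medium to 1.604 for Asns and 0.88 for Mthfd2, and that of M2 against Mφ in TRAP1 KO control to 0.30 for Gdf15. The differences in response in M2 reversed to -0.34 for Atf4, 0.31 for Atf3 and -0.60 for Trib3. With batch as a covariate, Ddit3 in TRAP1 KO M2 became -0.0222, Asns and Mthfd2 in M2 in control medium 0.30 and 0.24, and the Atf3 difference in M2 0.22.

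A minimum log2 fold change of 1 left 3 genes for the medium in WT Mφ and 3 in WT M2, 1 for the genotype in each cell type in control medium, 5 in Mφ in MPNST-CM, 1, 2 and 1 for M2 against Mφ in WT control, TRAP1 KO control and WT MPNST-CM, 5 for the difference between genotypes in M2 and 0 for that between cell types in WT, by construction of the minimum. The share of all genes left by this minimum is not given here. Fitting the groups concerned alone called 1 gene, not 0, for the difference between cell types in TRAP1 KO.

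The replicate number as a block left 3 genes called for the genotype in M2 in control medium and moved no other count by over 1.5 times. Same-numbered libraries deviated together with a mean r of 0.107 (-0.214 to 0.521, 77 pairs, 34 over 0.1), against -0.0451 for 175 other pairs. Not every pair was over 0.1, and the numbers were not taken as pairs. Whether same-numbered libraries shared a preparation is not given and was not tested. In batch 1, WT M2 control had replicates 2 to 4 and the other groups had 1 to 3. Comparisons with WT M2 control therefore also differ in replicate number. Leaving out 1 library at a time gave 3 to 6 genes for the genotype in M2 in control medium, with 3 without WT M2 control replicate 3 or 4 or TRAP1 KO M2 control replicate 3, and 0 to 1 for the difference between cell types in TRAP1 KO. Median-of-ratios scaling, DESeq2 and no filter changed no total by over 1.5 times, but for the genotype in M2 in control medium the 2 higher and 3 lower genes became 1 and 4 with the first and with DESeq2. Levels near 3 counts, in Chac1 and Sesn2, limit what depth can show.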
